A study of Mus musculus with 12 samples.

Results

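Prostates of 24-week-old TRAMP mice fed phenethyl isothiocyanate (PEITC) were compared with prostates of wild type mice of the same age. Of the 12 RNA sequencing libraries of the study, 4 enter this comparison, chosen by their labels of genotype, diet and age, with all 24421 genes listed in each. Of these, 2 came from TRAMP mice on AIN-93M diet with 0.05% (w/w) PEITC (replicates 0 and 1), and 2 from C57BL/6 wild type mice on AIN-93M diet without PEITC (replicates 0 and 1). Another 2 libraries, from 24-week TRAMP mice on the control diet (replicates 0 and 2), were set beside them to show where PEITC-fed prostates differed from TRAMP prostates that had no PEITC. The TRAMP strain of both diets is C57BL/6-Tg(TRAMP)8247Ng/J, and all 6 libraries hold total RNA of ventral and dorsolateral prostate. No wild type mouse ate PEITC, so genotype and diet cannot be told apart in the comparison with wild type. The comparison of the TRAMP diets holds genotype fixed. It cannot tell diet from other differences between the libraries of the 2 diets. The labels give neither the length of feeding nor the number of animals in a library, so p-values measure the spread between these libraries, which may be technical.

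TRAMP mice carry the T antigens of the virus SV40 under the promoter of probasin (Pbsn), an androgen-driven gene of prostate epithelium, so the transgene is on in epithelial cells and not in stroma or immune cells. Large T antigen binds the pocket proteins of the retinoblastoma family, which otherwise hold back the E2F transcription factors that switch on DNA replication genes, and it also binds p53. PEITC is a compound of cruciferous vegetables that is known to react with KEAP1, the protein that keeps the antioxidant transcription factor NRF2 low. The transgene itself was not analysed here.

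Values are FPKM, read fragments scaled for transcript length and library size, and differences are log2 fold changes of FPKM + 1, which understate the change of genes with low values. A gene is said to have risen, fallen or changed where its p-value from limma, adjusted by Benjamini-Hochberg over 13375 tested genes, was under 0.05. Depth in reads is unknown. As a share of the deepest of them, TRAMP control diet replicate 0, depth was 0.941 and 0.925 in TRAMP+PEITC, 1 and 0.948 in TRAMP control diet and 0.681 and 0.694 in wild type. Over the tested genes the 2 TRAMP+PEITC libraries correlated with each other at r = 0.9905, and with the wild type libraries at 0.9308 to 0.9457. TRAMP+PEITC replicate 1 stood apart in neuroendocrine and fat cell genes, which are given at the end, and results that rest on it are given without it. In bulk tissue, fewer cells of a type and less RNA per cell cannot be told apart, in any result below. The markers of the labelled tissue were present: the luminal keratin Krt8 gave 359 and 347 FPKM in TRAMP+PEITC and 418 and 366 in wild type, and Hoxb13, a transcription factor of prostate epithelium, gave 430.1 and 424 in TRAMP+PEITC and 528 and 585 in wild type.

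PEITC-fed TRAMP prostates differed from wild type prostates across the transcriptome. Of the 13375 tested genes 6087 (45.5%) were called, 3051 higher (22.8%) and 3036 lower (22.7%). Counts of called genes in the gene lists below are read against these shares. A difference of at least 2-fold in FPKM + 1 was found in 878 of the higher genes (6.56% of those tested) and in 352 of the lower ones (2.63%). TRAMP mice on the control diet, set against the same 2 wild type libraries, gave 6014 calls (45%), 3071 higher (23%) and 2943 lower (22%), with 880 higher (6.58%) and 362 lower (2.71%) by at least 2-fold. Since the 2 comparisons share their wild type libraries, their values are given side by side only, and the direct comparison of the TRAMP diets tests the difference between them. The split into higher and lower calls depended on scaling: 67.8% of calls were higher when the 50 most abundant genes were left out of the library totals, which raised the median of all genes by 0.117, and 44.0% after quantile normalization, against 50.1% as deposited. Fewer genes were called without TRAMP+PEITC replicate 1. With all 4 libraries, 10287 genes (76.9%) had values that did not overlap between the 2 groups whatever their p, beside 9792 (73.2%) on the control diet. Such separation was common between the TRAMP diets too, at 5961 genes (44.6%), although 0 genes were called there. An unadjusted p under 0.05 was found for 7087 genes (53%) with PEITC and 7093 (53%) on the control diet.

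**Figure D1:**
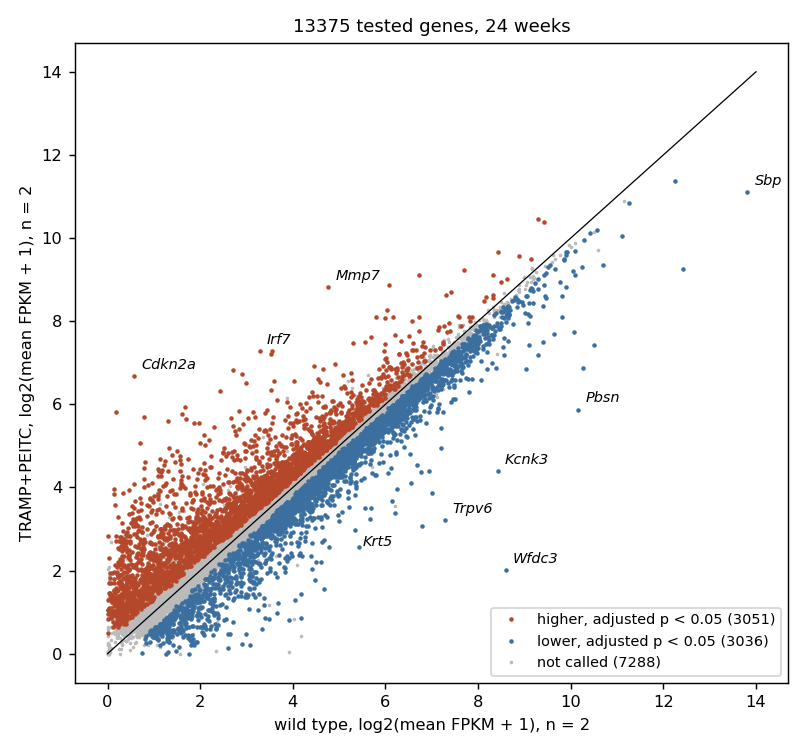
Mean level of each tested gene in TRAMP+PEITC (vertical axis) against wild type (horizontal axis), both as log2(mean FPKM + 1) of 2 libraries, with called genes in colour and the diagonal marking equal levels. Cdkn2a, Irf7 and Mmp7 lie above the diagonal and Wfdc3, Pbsn, Kcnk3, Trpv6, Krt5 and Sbp below it.

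The largest rise was that of Cdkn2a (ENSMUSG00000044303.6, mm10 chromosome 4, 89274471 to 89294653), which encodes the cell cycle inhibitor p16INK4a and, in another reading frame, the p53 activator ARF. It stood at 99.0 and 104 FPKM in TRAMP+PEITC, 136 and 119.7 in TRAMP control diet and 0.404 and 0.555 in wild type, so every TRAMP library lay far above both wild type libraries. The log2 fold change against wild type was 6.11 (SE 0.28, limma adjusted p = 4.79e-06) with PEITC and 6.44 on the control diet. The other large rises were in genes of DNA copying, of the interferon response and of a few enzymes. Fbp1, an enzyme of glucose synthesis (ENSMUSG00000069805.10, chromosome 13, 62864753 to 62888282), gave 35.1 and 30.0 FPKM in TRAMP+PEITC, 11.1 and 26.5 in TRAMP control diet and 0.248 and 1.01 in wild type (4.40, SE 0.38, adjusted p = 8.13e-05). Mmp7, the protease matrilysin (ENSMUSG00000018623.9, chromosome 9, 7692090 to 7699585), gave 412 and 489 FPKM in TRAMP+PEITC, 265 and 520.2 in TRAMP control diet and 26.1 and 26.2 in wild type (4.05, SE 0.33, adjusted p = 6.50e-05). In both genes every TRAMP library lay above every wild type library. Apol9a and Apol9b, neighbours in the apolipoprotein L family, changed by 4.77 and 4.23, but they are near copies of each other and their reads could be split between them, so neither value is certain. Wfdc12, a whey acidic protein domain gene, rose by 3.83 (13.0 and 16.3 FPKM in TRAMP+PEITC and 0.0633 and 0.124 in wild type), a value that was 6.26 with a pseudocount of 0.1.

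**Figure D2:**
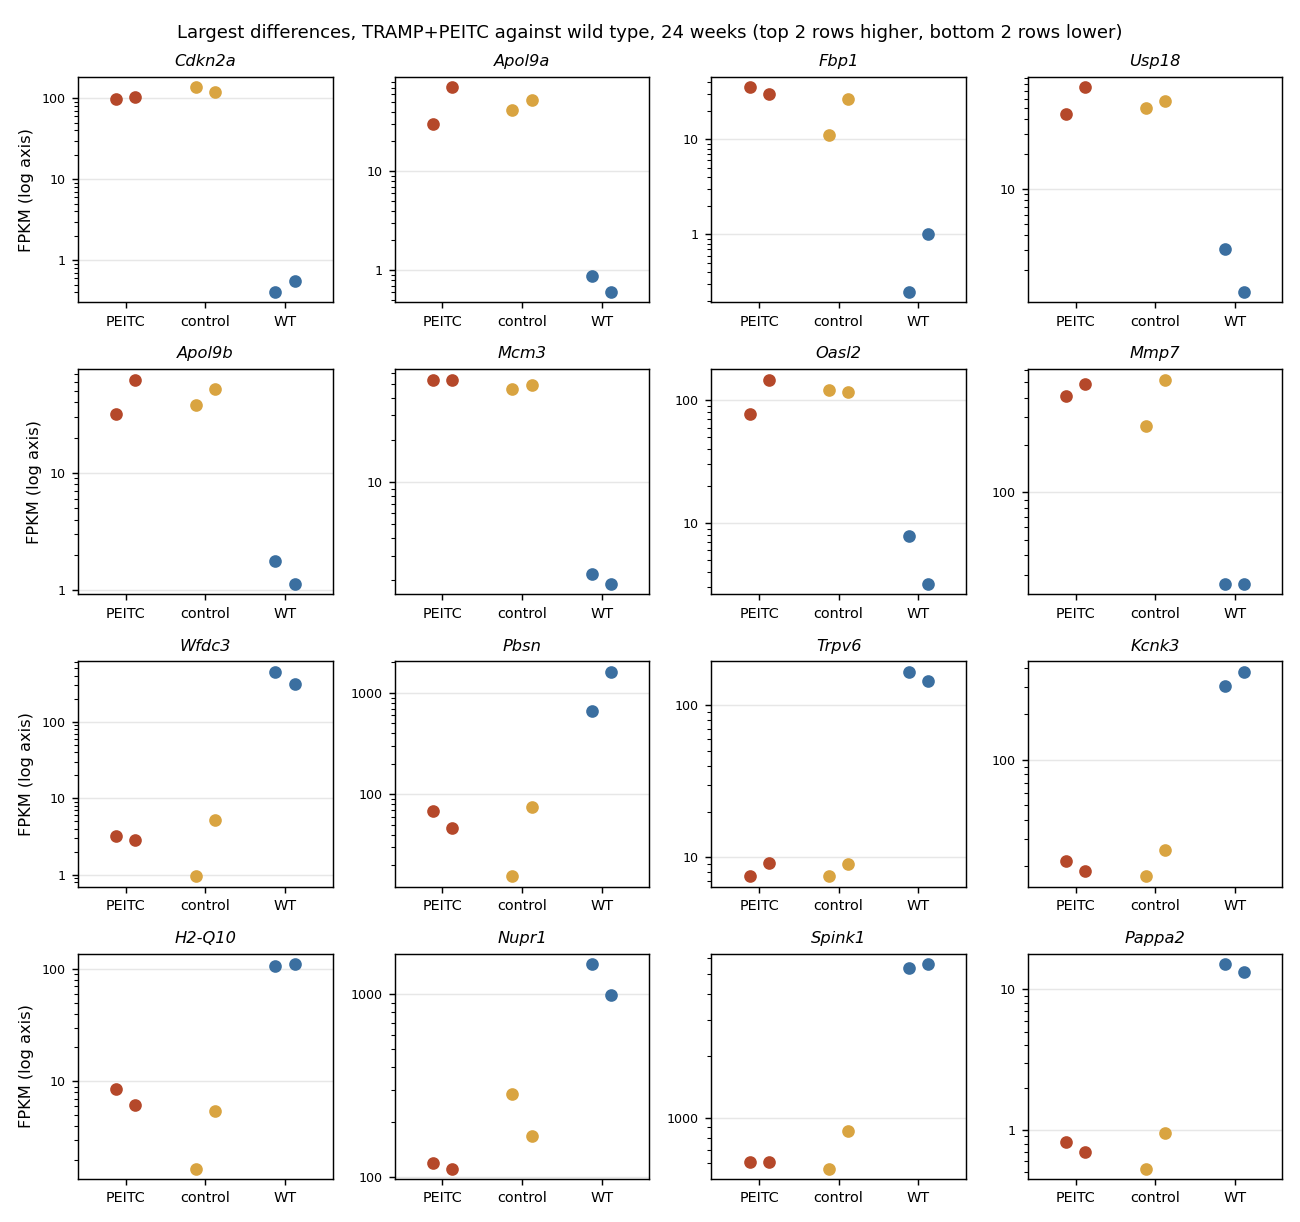
FPKM (log axis) in each 24-week library of TRAMP+PEITC, TRAMP control diet and wild type for the 8 named genes with the largest rise and the 8 with the largest fall against wild type; each point is 1 library. In all 16 genes the TRAMP+PEITC points lie on 1 side of the wild type points, and the TRAMP control diet points lie on that same side.

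Genes that copy DNA rose without exception. All 34 tested members of the DNA replication and G1/S list were higher in TRAMP+PEITC than in wild type, with a median log2 fold change of 2.47 over the list against 0.00 over all tested genes, and with single values between 1.37 (Rrm2) and 4.17 (Mcm3). Their summed FPKM was 1249 and 1296 in TRAMP+PEITC, 1084 and 1161 in TRAMP control diet and 197.9 and 199.2 in wild type. On the control diet all 34 rose as well, with a median of 2.20. The subunits of the MCM helicase, which opens the DNA ahead of the polymerases, had the 3 largest values. Mcm3 (ENSMUSG00000041859.10, chromosome 1, 20802968 to 20820312) gave 54.1 and 53.4 FPKM in TRAMP+PEITC, 46.2 and 49.9 in TRAMP control diet and 2.23 and 1.87 in wild type (4.17, SE 0.10, adjusted p = 1.42e-06). Mcm5 (ENSMUSG00000005410.6, chromosome 8, 75109569 to 75128439) gave 49.4 and 49.4 FPKM in TRAMP+PEITC, 41.9 and 45.5 in TRAMP control diet and 2.59 and 1.91 in wild type (3.96, SE 0.13, adjusted p = 1.42e-06). Both genes had TRAMP+PEITC libraries above both control diet libraries, which in turn lay well above wild type. Mcm6, the most abundant of these subunits, gave 151 and 145 FPKM in TRAMP+PEITC, 126 and 134 in TRAMP control diet and 11.6 and 9.63 in wild type (3.68). The licensing factor Cdt1, which loads the helicase onto DNA, rose by 3.58.

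The promoters of 27 of these genes were found in the RefSeq windows of GRCm38.p6, which run from 250 bases before to 50 bases after the start of the gene. An exact E2F motif, TTTCGCGC or TTTGGCGC on either strand, was present in 10 of the 27 (37.0%), against 1.85% of the 10008 tested genes with a promoter and 0.929% of all 27025 promoters. The motifs can overlap each other, and a match is a description of the letters, not a bound site. The windows of Mcm5 (chr8:75109259-75109558, plus strand, 2 overlapping matches) and Mcm6 (chr1:128359656-128359955, minus strand, 3 matches, 2 of them overlapping) are shown, because these genes rose by 3.96 and 3.68 and hold the most matches of the list; capitals mark the motif.
Mcm5: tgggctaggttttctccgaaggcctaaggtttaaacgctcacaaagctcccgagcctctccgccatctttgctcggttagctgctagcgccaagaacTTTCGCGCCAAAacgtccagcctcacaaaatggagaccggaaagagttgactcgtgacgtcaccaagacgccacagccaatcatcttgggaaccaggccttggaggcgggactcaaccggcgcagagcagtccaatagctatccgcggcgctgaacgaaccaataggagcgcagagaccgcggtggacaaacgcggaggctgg
Mcm6: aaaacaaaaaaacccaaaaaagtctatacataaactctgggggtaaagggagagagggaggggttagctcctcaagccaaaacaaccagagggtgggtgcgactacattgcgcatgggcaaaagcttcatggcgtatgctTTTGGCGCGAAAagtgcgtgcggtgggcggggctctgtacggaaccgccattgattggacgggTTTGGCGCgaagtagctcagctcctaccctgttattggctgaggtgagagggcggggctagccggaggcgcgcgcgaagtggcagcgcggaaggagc

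All 30 tested members of the mitosis and G2/M list were higher than in wild type (median 2.52, values 0.78 to 3.62), and 29 of 30 were called on the control diet (median 2.23). Summed FPKM was 322.5 and 459.9 in TRAMP+PEITC, 349.2 and 302.8 in TRAMP control diet and 45.3 and 45.9 in wild type, so TRAMP+PEITC replicate 1 was the highest of the 6. The proliferation marker Mki67 gave 15.9 and 20.6 FPKM in TRAMP+PEITC, 15.7 and 12.8 in TRAMP control diet and 1.23 and 1.19 in wild type (3.11, SE 0.18, adjusted p = 1.37e-05). Cdk1, the kinase that starts mitosis, gave 19.8 and 24.6 FPKM in TRAMP+PEITC, 18.8 and 19.0 in TRAMP control diet and 1.30 and 1.32 in wild type (3.32, SE 0.10, adjusted p = 1.42e-06). For both, wild type lay near 1 FPKM, so the fold change depended on the pseudocount and was 1.90 for Mki67 and 2.10 for Cdk1 when 5 was added in place of 1. Ube2c, the ubiquitin-conjugating enzyme of the anaphase-promoting complex, rose by 3.62, the complex's activator Cdc20 by 3.18, the cyclin Ccnb2 by 3.28 and the topoisomerase Top2a by 1.92. Of 25 mitosis genes with a promoter, 18 (72.0%) held the cell cycle homology region TTTGAA on either strand, against 14.2% of tested genes and 20.2% of all promoters. The window of Cdk1 (chr10:69352863-69353162, minus strand) is shown as the example with 2 matches, in capitals, for a gene that rose by 3.32.
Cdk1: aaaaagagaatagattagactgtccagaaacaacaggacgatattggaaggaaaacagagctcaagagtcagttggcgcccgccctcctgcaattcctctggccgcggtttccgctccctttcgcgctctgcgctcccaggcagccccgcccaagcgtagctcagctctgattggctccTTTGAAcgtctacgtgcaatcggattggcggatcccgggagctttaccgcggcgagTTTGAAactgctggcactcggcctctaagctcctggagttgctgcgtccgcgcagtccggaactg

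Repair genes of the S phase rose with them: all 14 homologous recombination and mismatch repair genes were higher, with a median of 1.59, and 14 of 14 rose on the control diet with a median of 1.31. Chek1, a checkpoint kinase, gave 10.1 and 10.4 FPKM in TRAMP+PEITC, 6.49 and 8.06 in TRAMP control diet and 0.473 and 0.491 in wild type (2.93, SE 0.15, adjusted p = 8.36e-06). The TRAMP libraries of both diets lay above both wild type libraries. The Fanconi anemia gene Fanca rose by 2.46. With a pseudocount of 5 the list's median was 0.83 and with 0.1 it was 2.86.

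Among the pocket proteins, E2F factors and inhibitors of cyclin-dependent kinases, 14 of 19 rose and 1 fell (median 0.94; on the control diet 12 rose and 1 fell, median 0.79). The activator E2f1 gave 19.2 and 19.0 FPKM in TRAMP+PEITC, 15.4 and 17.7 in TRAMP control diet and 3.14 and 3.18 in wild type (2.27, SE 0.12, adjusted p = 7.70e-06), and the repressor E2f8, itself a target of E2F, rose by 2.31. The pocket protein genes moved differently: Rbl1 (p107) changed by 1.63, Rb1 by 0.40 (adjusted p = 0.0317) and Rbl2 (p130) by -0.34. The list had no lower call without TRAMP+PEITC replicate 1 or wild type replicate 1, or when library totals omitted the 50 most abundant genes. After Cdkn2a, the kinase inhibitor with the largest rise was Cdkn2c (p18), with 39.3 and 47.6 FPKM in TRAMP+PEITC, 47.1 and 43.9 in TRAMP control diet and 5.91 and 5.26 in wild type (2.75). Cdkn1a (p21), a p53 target, was not called (3.66 and 5.84 FPKM in TRAMP+PEITC, 8.52 and 7.66 in TRAMP control diet and 6.53 and 5.09 in wild type; -0.26, adjusted p = 0.508). Rb1, Rbl1 and Rbl2 were chosen after their values were seen.

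Of 17 tested p53 targets 9 fell and 3 rose against wild type (median -0.36), beside 8 lower and 2 higher on the control diet (median -0.25). Over all tested genes 22.7% fell and 22.8% rose against wild type, so the falls were above that share and the rises under it. Phlda3, an inhibitor of the kinase AKT, gave 5.46 and 8.80 FPKM in TRAMP+PEITC, 7.89 and 9.19 in TRAMP control diet and 22.8 and 19.6 in wild type (-1.48, SE 0.26, adjusted p = 0.00243). Perp, a desmosome component, changed by -1.37, while the death receptor Tnfrsf10b rose by 0.81 (2.09 and 1.97 FPKM in TRAMP+PEITC and 0.708 and 0.751 in wild type). With any 1 of the 4 libraries left out, 1 member was called higher.

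Of 19 tested chromatin and DNA methylation enzymes 10 rose and 0 fell (median 0.24; 9 higher and 1 lower on the control diet, median 0.25). Uhrf1, which brings the maintenance DNA methyltransferase to newly copied DNA, gave 22.7 and 25.1 FPKM in TRAMP+PEITC, 15.2 and 17.2 in TRAMP control diet and 1.53 and 1.21 in wild type (3.39, SE 0.20, adjusted p = 1.53e-05). That methyltransferase, Dnmt1, gave 30.9 and 29.8 FPKM in TRAMP+PEITC, 30.0 and 27.2 in TRAMP control diet and 7.19 and 7.61 in wild type (1.90). The histone methyltransferases Ezh2 and Suv39h1 rose by 1.61 and 1.41. The libraries of TRAMP+PEITC and wild type did not overlap in any of these 4 genes.

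**Figure D3:**
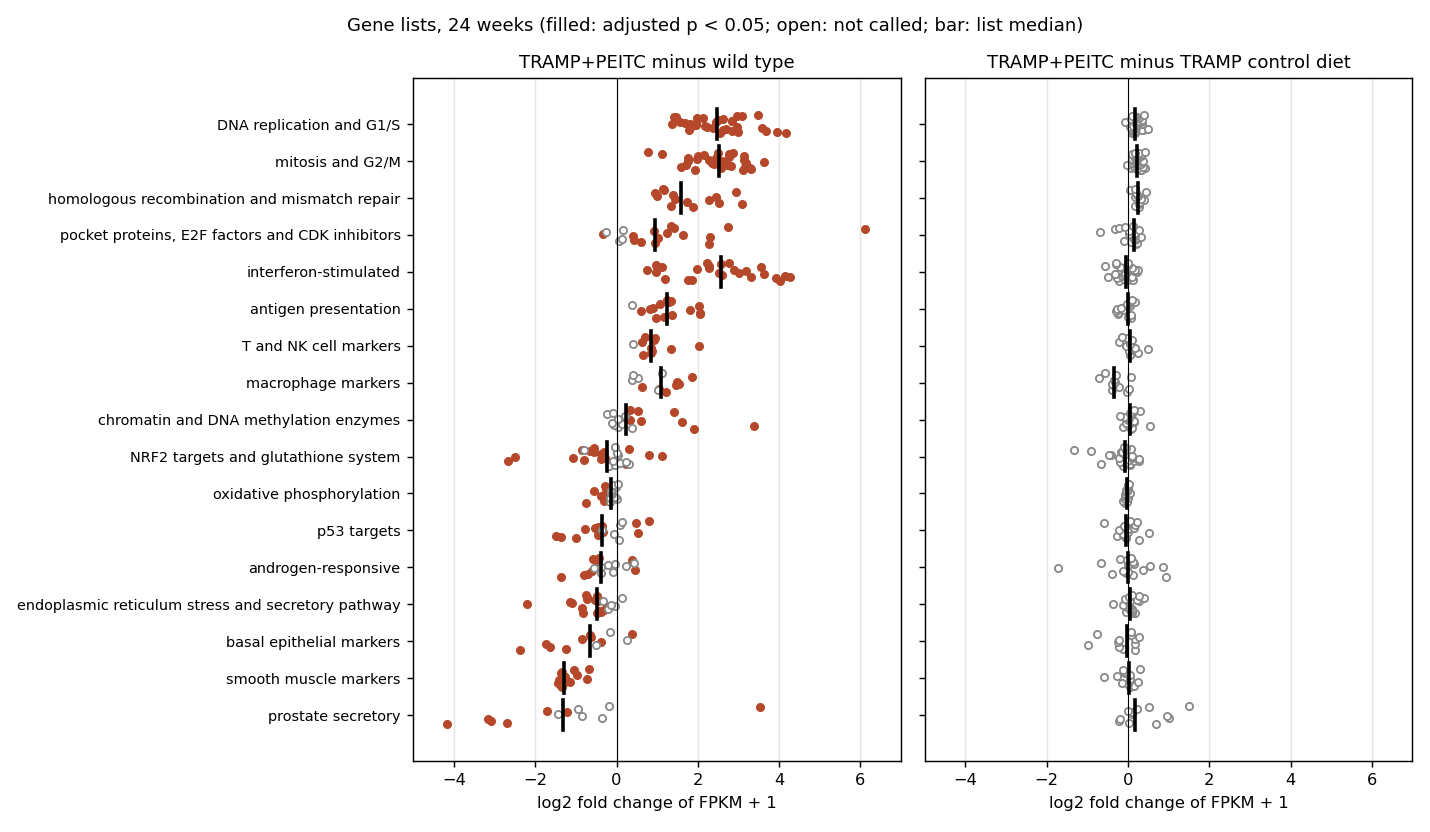
Log2 fold change (of FPKM + 1) of each tested member of 17 gene lists, TRAMP+PEITC minus wild type on the left and TRAMP+PEITC minus TRAMP control diet on the right; filled points passed the adjusted threshold, open points did not, and bars are list medians. The DNA replication and mitosis medians are 2.47 and 2.52 on the left and 0.18 and 0.22 on the right, where no point is filled.

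Interferon-stimulated genes also rose as a whole. All 25 tested members were higher than in wild type (median 2.58, values 0.74 to 4.27), against 24 of 25 on the control diet (median 2.70). Summed FPKM was 891.1 and 1494 in TRAMP+PEITC, 1195 and 1293 in TRAMP control diet and 251.2 and 172.9 in wild type. TRAMP+PEITC replicate 1 was the highest library and replicate 0 the lowest TRAMP library; without replicate 1 the list had 21 calls and a median of 2.20. Usp18 (ENSMUSG00000030107.10, chromosome 6, 121245906 to 121270917), the protease that removes the ubiquitin-like protein ISG15, gave 44.4 and 75.1 FPKM in TRAMP+PEITC, 50.2 and 57.7 in TRAMP control diet and 3.03 and 1.30 in wild type (4.27, SE 0.34, adjusted p = 6.07e-05). Isg15 itself (ENSMUSG00000035692.6, chromosome 4, 156199424 to 156200818) gave 53.2 and 105 FPKM in TRAMP+PEITC, 90.2 and 89.5 in TRAMP control diet and 6.44 and 2.38 in wild type (3.92, SE 0.47, adjusted p = 0.000415). The regulatory factor Irf7, which drives interferon genes, gave 105 and 203 FPKM in TRAMP+PEITC, 159 and 181 in TRAMP control diet and 12.3 and 5.16 in wild type (4.02, SE 0.42, adjusted p = 0.000196). In each of these genes TRAMP+PEITC replicate 1 held over 1.5 times the value of replicate 0, and both lay far above wild type. Oasl2, an oligoadenylate synthetase-like antiviral gene, rose by 4.14.

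Of 17 interferon-stimulated genes with a RefSeq promoter, 11 (64.7%) held the interferon response element in the form GAAANNGAA on either strand, against 8.53% of tested genes with a promoter and 9.76% of all promoters. The windows of Irf7 and Oasl2 held no such letters. The window of Isg15 (chr4:156200769-156201068, minus strand) had 3 overlapping matches, shown in capitals, and is printed because Isg15 rose by 3.92; Ifit1 and Ifit3 had 3 matches too.
Isg15: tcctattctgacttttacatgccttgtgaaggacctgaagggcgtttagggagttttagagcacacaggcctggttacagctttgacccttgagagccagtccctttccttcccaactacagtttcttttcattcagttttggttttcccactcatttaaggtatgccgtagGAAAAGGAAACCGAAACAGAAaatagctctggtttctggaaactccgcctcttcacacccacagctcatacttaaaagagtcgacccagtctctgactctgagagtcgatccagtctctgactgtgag

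Antigen presentation genes rose with the interferon genes: 14 of 15 were higher (median 1.24), against 12 of 15 on the control diet (median 1.13). The immunoproteasome subunit Psmb8 gave 109.8 and 138 FPKM in TRAMP+PEITC, 139 and 152 in TRAMP control diet and 32.8 and 25.1 in wild type (2.06, SE 0.16, adjusted p = 4.49e-05). Its partner Psmb9 rose by 2.05, the peptide transporter Tap1 by 1.82 and Nlrc5, the activator of class I genes, by 2.02. H2-Q10, a secreted class I-like protein, was an exception outside the list, with 8.53 and 6.19 FPKM in TRAMP+PEITC, 1.68 and 5.51 in TRAMP control diet and 107 and 111 in wild type (-3.73); class I genes resemble each other, so its value is less certain. With any 1 of the 4 libraries left out, 10 of the 15 genes passed. The chemokine Cxcl10, which attracts T cells, rose by 3.13 (SE 0.51), the largest value among 12 inflammatory cytokine and NF-kB genes, of which 1 rose and 1 fell (median 0.27; 5 higher and 0 lower on the control diet, median 0.59).

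Immune cell markers were higher as well. Of 11 tested T and NK cell markers 10 rose (median 0.85; 8 on the control diet, median 0.85), with summed FPKM of 58.1 and 92.9 in TRAMP+PEITC, 67.7 and 82.6 in TRAMP control diet and 27.0 and 24.0 in wild type. The T cell chemokine Ccl5 gave 28.4 and 46.1 FPKM in TRAMP+PEITC, 31.3 and 44.3 in TRAMP control diet and 8.04 and 8.06 in wild type (2.04, SE 0.24, adjusted p = 0.000354), and Cd8a rose by 1.34. Without TRAMP+PEITC replicate 1, 6 of the 11 passed. Of 12 macrophage markers 7 rose (median 1.09; 9 on the control diet, median 1.34), with sums of 214.6 and 256.9 in TRAMP+PEITC, 192.1 and 415.4 in TRAMP control diet and 87.6 and 76.6 in wild type. The lysozyme Lyz2 gave 59.6 and 67.8 FPKM in TRAMP+PEITC, 31.7 and 113 in TRAMP control diet and 18.5 and 15.2 in wild type (1.86, adjusted p = 0.0421), and the complement gene C1qb rose by 1.53 (adjusted p = 0.0123). The macrophage calls were few when a library was left out: 4 without TRAMP+PEITC replicate 0, 1 without its replicate 1, 2 without wild type replicate 0 and 0 without wild type replicate 1. Of 4 B and plasma cell markers, Jchain, which joins antibody chains, rose (1.49, adjusted p = 0.0135), and it lost its call without TRAMP+PEITC replicate 0 or wild type replicate 1. Neutrophil markers were under the filter on low values, with sums of 0.372 and 0.728 FPKM in TRAMP+PEITC and 0.0908 and 0.142 in wild type. The part of these cells in the interferon and antigen presentation values was not tested.

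Of 12 tested secretory genes 6 fell and 1 rose (median -1.33; 8 lower and 1 higher on the control diet, median -1.71), and their summed FPKM was 5556 and 5401 in TRAMP+PEITC, 3734 and 5653 in TRAMP control diet and 25910 and 26997 in wild type. Pbsn, the mouse's own probasin gene (ENSMUSG00000000003.15, chromosome X, 77837901 to 77853623), gave 68.1 and 46.9 FPKM in TRAMP+PEITC, 15.5 and 74.8 in TRAMP control diet and 664 and 1619.8 in wild type (-4.17, SE 0.73, adjusted p = 0.00246). The spermine-binding protein Sbp (ENSMUSG00000024128.13, chromosome 17, 23941672 to 23945607) gave 2230.2 and 2194 FPKM in TRAMP+PEITC, 2042 and 2324 in TRAMP control diet and 14577 and 14196 in wild type (-2.70, SE 0.11, adjusted p = 3.35e-06). Wild type libraries lay above every TRAMP library in both genes, and differed from each other by more than 2 times in Pbsn. Sbp took 0.563% and 0.555% of the FPKM sum in TRAMP+PEITC and 3.18% and 3.10% in wild type, and its log2 fold change was -0.66 after quantile normalization, which flattens the most abundant genes. Sbpl, a close relative whose reads could be shared with Sbp, changed by -3.09, and the trypsin inhibitor Spink1 by -3.17 (607 and 610.2 FPKM in TRAMP+PEITC and 5389 and 5619.7 in wild type). Wfdc15b, a whey acidic protein domain gene, was the member that rose (3.53). Msmb, the seminal protein microseminoprotein, was not called (-0.36, adjusted p = 0.519); it was taken from the list after its values were seen.

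Outside the secretory list, the deepest fall was that of Wfdc3, another whey acidic protein domain gene (ENSMUSG00000076434.9, chromosome 2, 164731180 to 164745931), with 3.20 and 2.88 FPKM in TRAMP+PEITC, 0.953 and 5.23 in TRAMP control diet and 453 and 317 in wild type (-6.56, SE 0.46, adjusted p = 3.22e-05). The epithelial calcium channel Trpv6 (ENSMUSG00000029868.13, chromosome 6, 41620624 to 41636405) gave 7.48 and 9.14 FPKM in TRAMP+PEITC, 7.49 and 9.02 in TRAMP control diet and 167 and 144 in wild type (-4.07, SE 0.17, adjusted p = 3.35e-06). The potassium channel Kcnk3 gave 21.6 and 18.4 FPKM in TRAMP+PEITC, 17.1 and 25.4 in TRAMP control diet and 304 and 379 in wild type (-4.02). In all 3 genes the TRAMP libraries of both diets lay together, far under wild type. Nupr1, a stress-induced nuclear protein, fell by 3.37 on the log2 scale with PEITC and by 2.45 on the control diet, at 119.7 and 112 FPKM in TRAMP+PEITC, 285 and 169 in TRAMP control diet and 1462 and 993 in wild type. Further falls were those of Pappa2, a protease of insulin-like growth factor binding proteins (-3.11), the cystatin Csta1 (-3.11), Dcaf12l1 (-3.10) and Rgs7bp, a binding protein of a G protein regulator (-2.87).

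Androgen-responsive genes fell in part: of 17 tested, 7 fell and 2 rose (median -0.39). On the control diet 7 were lower and 2 higher (median -0.32). Against wild type the falls were above the 22.7% of all tested genes called lower, and the rises under the 22.8% called higher. Fkbp5, a cochaperone of steroid receptors, gave 123 and 122 FPKM in TRAMP+PEITC, 106 and 117 in TRAMP control diet and 171 and 269 in wild type (-0.81, SE 0.18, adjusted p = 0.00778). Both wild type libraries lay above every TRAMP library. The protease Tmprss2 changed by -0.71 and the transporter Abcc4 by -0.61. Genes of the endoplasmic reticulum, where secreted proteins fold, fell for 16 of 21 and rose for 0 (median -0.47; 18 lower on the control diet, median -0.61). Creb3l1, a membrane-bound transcription factor of secretory cells, gave 0.907 and 1.21 FPKM in TRAMP+PEITC, 1.13 and 2.32 in TRAMP control diet and 7.46 and 9.46 in wild type (-2.20). Its relative Creb3l4 changed by -1.10, the chaperone partner Creld2 by -1.15 and the disulfide isomerase Pdia6 by -0.84. After quantile normalization 8 of 21 were called, with a median of -0.19. Of 9 polyamine genes 4 fell and 2 rose, the rises near the 22.8% of all tested genes called higher. Among them were Odc1, which makes putrescine (-1.01), and Smox, which oxidises spermine (0.53). Wild type replicate 1 was high in Odc1. Without that library fewer members were called lower, and the list median was -0.15, against -0.33 with it.

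Cell type markers separated the epithelial layers and the stroma. Luminal markers had 3 higher and 3 lower of 14, close to the shares over all tested genes (22.8% and 22.7%; median -0.10, but 0.03 when library totals omitted the abundant genes and 0.19 under quantile normalization). Among them Prom1, a membrane protein of luminal progenitors, rose to 109 and 76.7 FPKM in TRAMP+PEITC, against 13.0 and 9.05 in wild type (2.96, SE 0.26, adjusted p = 9.02e-05). The members that fell included the surface protein Cd24a (-0.63) and the transcription factor Hoxb13 (-0.38, and -0.03 after quantile normalization). Basal markers fell for 8 of 12 and rose for 1 (median -0.65; 7 lower and 2 higher on the control diet, median -0.83). The basal keratin Krt5 gave 7.47 and 6.25 FPKM in TRAMP+PEITC, 4.67 and 7.71 in TRAMP control diet and 42.5 and 36.9 in wild type (-2.37, SE 0.21, adjusted p = 8.86e-05). Trp63, the transcription factor of basal cells, changed by -1.73, Krt15 by -1.63 and Krt14 by -1.24. All 14 smooth muscle markers fell (median -1.30; 12 on the control diet, median -1.26), with sums of 418.1 and 383.1 FPKM in TRAMP+PEITC, 382.5 and 448.3 in TRAMP control diet and 1048 and 991.8 in wild type. The myosin light chain Myl9 gave 56.8 and 53.2 FPKM in TRAMP+PEITC, 48.8 and 58.6 in TRAMP control diet and 154 and 144 in wild type (-1.42, SE 0.28, adjusted p = 0.0043), and calponin Cnn1 changed by -1.44, Myh11 by -1.37 and Mylk by -1.36. Without TRAMP+PEITC replicate 1 or wild type replicate 0, 9 of the 14 were called.

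Other stromal cells showed few calls. Fibroblast and matrix markers had 0 of 14 called (median 0.38; the collagen Col1a1 gave 9.52 and 13.2 FPKM in TRAMP+PEITC and 6.87 and 6.73 in wild type), although 6 were higher when only the 4 libraries compared were fitted. Of 11 endothelial markers Eng, a TGF-beta coreceptor, fell (-1.12) and the median was 0.00. Fat cell markers had 0 of 10 called, and the libraries of each group differed: their sums were 78.99 and 513.0 FPKM in TRAMP+PEITC, 154.5 and 354.1 in TRAMP control diet and 199.1 and 72.2 in wild type. The fat cell protease Cfd gave 6.60 and 135 FPKM in TRAMP+PEITC, 23.2 and 97.2 in TRAMP control diet and 27.1 and 0.292 in wild type. Within each group 1 library thus held more fat cell transcripts than the other. The higher wild type library lay near the lower TRAMP control diet library.

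NRF2 targets, which PEITC is known to induce in other settings, were more often lower than higher in PEITC-fed TRAMP prostates. Of 26 tested 12 fell and 4 rose (median -0.24), beside 9 lower and 8 higher on the control diet (median -0.06). The glutathione transferase Gsta3 gave 2.02 and 2.83 FPKM in TRAMP+PEITC, 1.24 and 2.52 in TRAMP control diet and 24.7 and 17.7 in wild type (-2.68, SE 0.24, adjusted p = 9.58e-05). The aldehyde dehydrogenase Aldh3a1 gave 0.308 and 0.470 FPKM in TRAMP+PEITC, 0.181 and 0.439 in TRAMP control diet and 8.61 and 5.30 in wild type (-2.49). In both, the TRAMP libraries of either diet lay far under wild type. The epoxide hydrolase Ephx1 changed by -1.07, and the export pump Abcc1 rose by 1.13. Nqo1, the quinone reductase often used to read NRF2, was low in all libraries (0.214 and 0.544 FPKM in TRAMP+PEITC, 0.262 and 0.765 in TRAMP control diet and 0.710 and 0.435 in wild type) and was not called (-0.19). Gclc, the catalytic subunit of glutathione synthesis, had 22.2 and 22.9 FPKM in TRAMP+PEITC and 22.1 and 24.7 in wild type, and Hmox1, heme oxygenase, 4.83 and 4.95 in TRAMP+PEITC and 3.87 and 3.66 in wild type; neither was called (-0.05 and 0.31). Without TRAMP+PEITC replicate 1, 7 of the 26 were called lower. The antioxidant response element in the form TGACNNNGC was found in 8 of 22 promoters of the list (36.4%), against 17.3% of tested genes. That share was not particular to NRF2 targets. It was 33.3% in the endoplasmic reticulum list (6 of 18) and in the prostate secretory list (3 of 9), and lower in the other lists searched. The list of the aryl hydrocarbon receptor and its targets had 3 tested members. The targets Cyp1a1, Cyp1a2 and Ahrr were under the filter on low values. The receptor gene Ahr was higher (0.40, limma adjusted p = 0.00677), and the tested targets Tiparp and Cyp1b1 were not called. Ahr lost its call in several settings, among them quantile normalization (limma adjusted p = 0.0718). Its log2 fold change was 0.38 without TRAMP+PEITC replicate 1.

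The comparison of the TRAMP diets asks which of these values differed between PEITC-fed and control-fed TRAMP mice. By limma 0 of 13375 genes passed the adjusted threshold (0%); the smallest adjusted p was 0.415, and 1267 genes (9.47%) had an unadjusted p under 0.05, 546 higher (4.08%) and 721 lower (5.39%). The 95% interval of the difference reached 0.25 to either side at the median gene. In 12509 genes (93.5%) it lay within a 2-fold change of FPKM + 1 either way. Genes with low FPKM fall within that range more easily, since 1 is added to each value. A difference of at least 2-fold in FPKM + 1 was seen in 77 genes (0.576%), against 1312 (9.81%) between TRAMP+PEITC and wild type. The count of 0 depended on the libraries: 160 genes passed without TRAMP control diet replicate 2 and 25 without TRAMP+PEITC replicate 0, all 25 of them higher.

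Cell cycle genes mostly had differences above 0 between the diets, none past the adjusted threshold. The median difference over the 34 replication genes was 0.18, 33 of them were positive, and 10 had an unadjusted p under 0.05, all higher; the intervals of the list lay between -0.34 and 0.82. The median was 0.22 over the 30 mitosis genes, with 2 of unadjusted p under 0.05. It was 0.49 without TRAMP+PEITC replicate 0 and -0.01 without replicate 1. For Mki67 the difference was 0.33 (95% interval -0.09 to 0.75), and for Uhrf1 it was 0.54 (0.07 to 1.01). Cdkn2a differed by -0.33 (-0.97 to 0.31). Interferon genes had a median of -0.06, with intervals between -1.88 and 1.33 across the list. Pbsn differed by 0.70 with a wide interval (-0.98 to 2.38), and by -0.40 without TRAMP control diet replicate 0, which was the low library. Sbp differed by 0.02 (-0.24 to 0.28).

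The genes with the smallest p-values between the diets are given with their wild type levels. The connective tissue growth factor Ctgf gave 17.8 and 18.2 FPKM in TRAMP+PEITC, 5.88 and 8.50 in TRAMP control diet and 18.2 and 20.6 in wild type (PEITC minus control diet 1.23, adjusted p = 0.465; PEITC minus wild type -0.10, adjusted p = 0.732). Clca3a2, a member of the chloride channel regulator family, gave 0.782 and 0.712 FPKM in TRAMP+PEITC, 37.3 and 15.9 in TRAMP control diet and 0.729 and 0.111 in wild type (-3.86, adjusted p = 0.415). Krt6a, a keratin of stressed epithelium, gave 0.0883 and 0.0898 FPKM in TRAMP+PEITC, 3.13 and 1.59 in TRAMP control diet and 0.346 and 0.0399 in wild type (-1.59). In these 3 genes the TRAMP control diet libraries stood alone, low in Ctgf and high in the others. The pentraxin Ptx3, an innate immune protein, had the same pattern as Krt6a, with 0.0692 and 0.123 FPKM in TRAMP+PEITC, 1.46 and 1.25 in TRAMP control diet and 0.0478 and 0 in wild type (-1.10). Sfn, an epithelial 14-3-3 protein, gave 10.1 and 9.95 FPKM in TRAMP+PEITC, 19.1 and 16.5 in TRAMP control diet and 8.60 and 6.54 in wild type (-0.76), and Ssbp4, a single-stranded DNA binding protein, gave 22.3 and 22.1 in TRAMP+PEITC, 36.1 and 31.3 in TRAMP control diet and 29.2 and 26.2 in wild type (-0.58). The clock gene Per3 and Havcr1, a kidney injury and T cell receptor gene, had their highest libraries with PEITC. Per3 gave 13.5 and 13.8 FPKM in TRAMP+PEITC, 9.91 and 8.99 in TRAMP control diet and 7.10 and 7.86 in wild type (0.49). Havcr1 gave 1.38 and 1.51 FPKM in TRAMP+PEITC, 0.268 and 0.581 in TRAMP control diet and 0.263 and 0.515 in wild type (0.79). Cyp2b10, a drug-metabolising enzyme, and Lhfpl1 lay between TRAMP control diet and wild type with PEITC. Cyp2b10 gave 20.8 and 18.9 FPKM in TRAMP+PEITC, 14.6 and 14.1 in TRAMP control diet and 109.7 and 108 in wild type (0.44), and Lhfpl1 gave 8.28 and 8.65 in TRAMP+PEITC, 5.68 and 6.30 in TRAMP control diet and 13.7 and 14.4 in wild type (0.44). For all 10 genes the adjusted p between the diets was at least 0.415, so no difference between them passed.

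**Figure D4:**
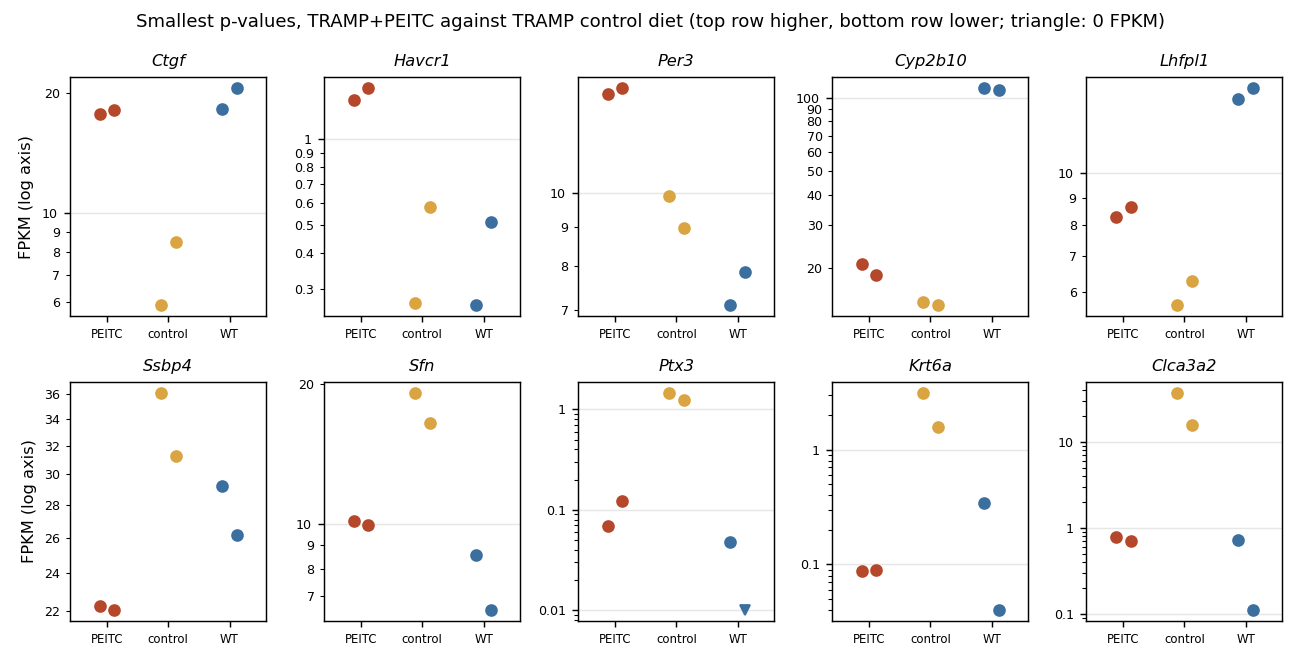
FPKM (log axis) in each 24-week library for the 10 genes with the smallest p-values between the TRAMP diets, 5 higher with PEITC above and 5 lower below; each point is 1 library. None passed adjustment. In Ctgf the TRAMP+PEITC points lie near the wild type points. In Clca3a2, Krt6a and Ptx3 both groups lie at low FPKM, under the TRAMP control diet points, and the wild type points are spread.

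Several inflammatory and NRF2 genes were lower with PEITC than on the control diet at an unadjusted p under 0.05, without passing adjustment. All 12 inflammatory cytokine and NF-kB genes had a difference below 0 (median -0.28), 3 of them at an unadjusted p under 0.05. Lcn2, an iron-sequestering protein of inflamed epithelium, gave 10.9 and 10.4 FPKM in TRAMP+PEITC, 115 and 61.3 in TRAMP control diet and 135 and 11.4 in wild type (-2.86, 95% interval -5.24 to -0.48); the wild type libraries themselves differed by more than 10 times. Of the 26 NRF2 targets 7 were lower and 1 higher at an unadjusted p under 0.05, against 5.39% and 4.08% of all genes. Hmox1 gave 4.83 and 4.95 FPKM in TRAMP+PEITC, 6.87 and 10.2 in TRAMP control diet and 3.87 and 3.66 in wild type (-0.67, 95% interval -1.24 to -0.11). Among those 7, chosen after their values were seen, the aldo-keto reductase Akr1b8 gave 5.68 and 6.58 FPKM in TRAMP+PEITC, 15.5 and 9.71 in TRAMP control diet and 9.89 and 10.5 in wild type (-0.90), and the glutathione peroxidase Gpx2 gave 4.89 and 3.52 in TRAMP+PEITC, 17.5 and 7.97 in TRAMP control diet and 10.2 and 6.29 in wild type (-1.32). Nqo1 and Gclc differed by -0.12 and 0.06. Timp1, an inhibitor of matrix proteases, was the only gene called when the 2 TRAMP diets alone were fitted, with 5.08 and 4.97 FPKM in TRAMP+PEITC, 31.1 and 29.2 in TRAMP control diet and 5.31 and 5.16 in wild type (-2.37, adjusted p = 0.0215 in that fit and 0.483 with all 12 libraries); it was chosen after its values were seen. Across genes, which are not independent replicates, the difference between the diets followed GC content at Spearman rho = -0.31 over 12896 genes. For TRAMP+PEITC minus wild type rho was -0.08. With a GC correction 0 genes were called between the diets, as without it, and its effect on the single values above is not given here.

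TRAMP+PEITC replicate 1 held transcripts of neuroendocrine cells, hormone- and peptide-secreting cells that are rare in the normal prostate and that make up some TRAMP tumors. Insm1, a transcription factor of these cells, was listed at 0 FPKM in replicate 0 and 10.8 in replicate 1 of TRAMP+PEITC, 0.0207 and 0.0327 in TRAMP control diet and 0.0304 and 0.0746 in wild type. Chga, the granule protein chromogranin A, gave 0.141 and 12.4 FPKM in TRAMP+PEITC, 0.133 and 0.140 in TRAMP control diet and 0.634 and 0.958 in wild type. The vesicle protein Syp gave 0.576 and 3.23 FPKM in TRAMP+PEITC, 0.617 and 0.611 in TRAMP control diet and 0.684 and 0.781 in wild type. In these genes the high value was that of replicate 1 alone, and replicate 0 lay within or under the range of the other 4 libraries. Chgb, Scg3 and Snap25, named after their values were seen, were also highest in replicate 1, with 2.88, 3.06 and 3.01 FPKM in replicate 1. Sox2 did not share it (3.60 and 3.37 FPKM in TRAMP+PEITC and 6.39 and 5.56 in wild type; -0.64, adjusted p = 0.017); that call was lost without TRAMP+PEITC replicate 0 (0.0562), its replicate 1 (0.0849) or wild type replicate 0 (0.0884). Summed over the list, neuroendocrine markers gave 5.97 and 45.8 FPKM in TRAMP+PEITC, 4.80 and 6.48 in TRAMP control diet and 10.4 and 10.2 in wild type. The median of the 7 tested members against wild type was 0.50, and it was -0.29 without replicate 1. Insm1, Chga and Snap25 reached the filter on low values only through replicate 1. The choice of members in both medians therefore rests in part on that library.

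**Figure D5:**
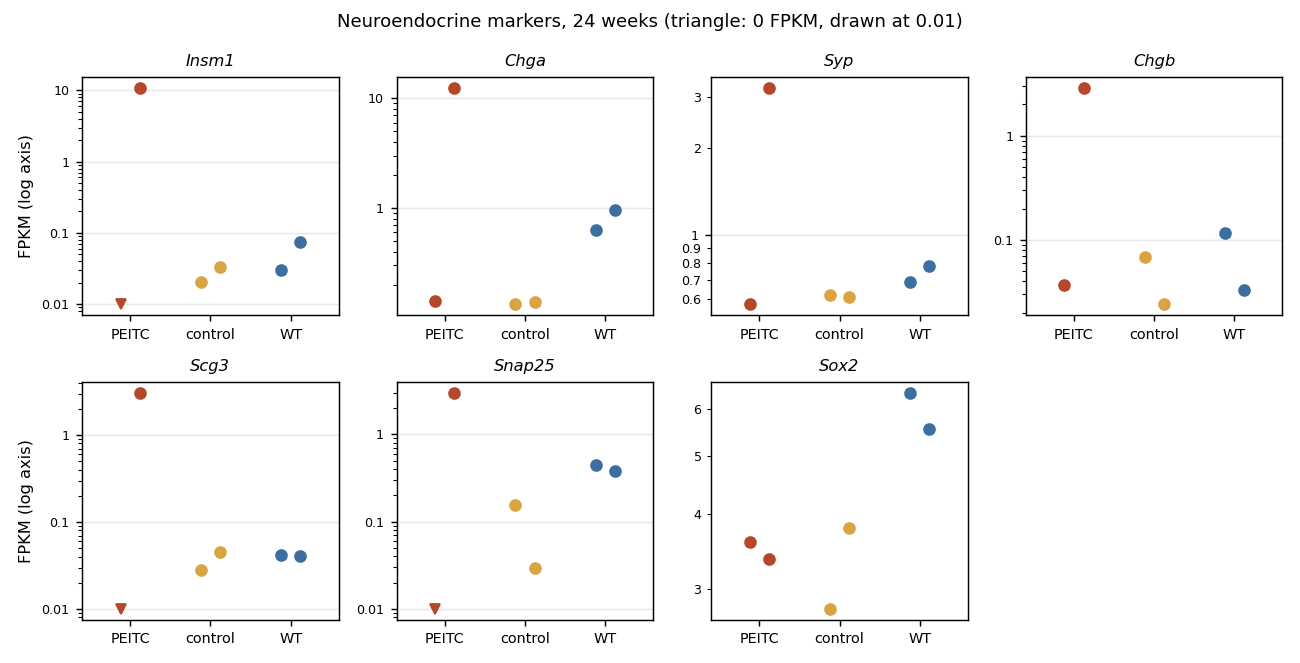
FPKM (log axis) of 7 neuroendocrine markers in each 24-week library; each point is 1 library and triangles mark values listed at 0, drawn at 0.01. TRAMP+PEITC replicate 1 is the highest library in 6 of the 7 genes, with 10.8 FPKM of Insm1 and 12.4 of Chga, whereas Sox2 is highest in wild type.

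A search over all 24421 genes, with a rule chosen after the values were seen and with no test, found 31 genes at 2 or more FPKM in TRAMP+PEITC replicate 1 and under 0.5 in each of the other 5 prostates of 24 weeks. The same rule found 0 such genes in TRAMP+PEITC replicate 0, 2 and 1 in TRAMP control diet replicates 0 and 2, and 3 and 2 in wild type replicates 0 and 1. Beside the markers above, the 31 included Ddc, the enzyme that makes dopamine and serotonin (0.143 FPKM in replicate 0 and 12.1 in replicate 1 of TRAMP+PEITC), the neural transcription factor Sox1 (0.00820 and 6.48), the microtubule regulator Stmn3 (0.0293 and 5.98) and the neuronal RNA-binding protein Elavl4 (0.00740 and 5.01). Part of them was present elsewhere in the study, in the 16-week wild type library, where 13 of the 31 reached 0.5 FPKM. Among these were Stmn3 (4.25), Ddc (1.93) and Snap25 (3.76), while Insm1 (0.0489) and Sox1 (0.0122) did not reach it. That library also held 7826 FPKM of seminal vesicle genes, against 4.83 and 8.02 in 24-week wild type. Its skeletal muscle genes summed to 103 FPKM, against 39.3 and 36.7. Whether prostate cells gave these transcripts was not tested. The fit between the TRAMP diets without TRAMP+PEITC replicate 0 leaves replicate 1 alone as the PEITC group. Its calls included some of these 31 genes, but they were picked for high values in replicate 1, so that overlap was built in. Some, such as Insm1, also reached the filter on low values through replicate 1 alone. Chga reached that filter through replicate 1 alone too. Its log2 fold change against wild type was -0.65 without replicate 1, from 0.141 FPKM in replicate 0 against 0.634 and 0.958 in wild type. Replicate 1 was also the library richest in fat cell markers, whose median against wild type was 1.06, and -0.20 without it. All 134 called genes among the 173 named ones kept their direction without replicate 1. That outcome was fixed in advance, since all 6087 called genes had libraries that did not overlap between the 2 groups. Leaving out 1 library cannot turn such a difference.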

How the data were processed

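Total RNA of mouse prostate was extracted with the Qiagen AllPrep kit and sequenced from Illumina libraries, per the labels' protocols. The deposited values are FPKM per gene, made by the authors; the submitters' processing notes list the tools HISAT2, featureCounts, Picard and DESeq2, with neither version nor role, and genome build mm10. Neither the annotation nor the scaling total is given in the sources used here; library sums were 395678 to 467650 FPKM. FPKM are not counts, so no count test was run; relative depth was read from the smallest steps of the values.

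Values were taken as log2(FPKM + 1). The 13375 of 24421 genes whose mean over 12 libraries reached 0.5 FPKM entered limma 3.58.1 (R 4.3.3), with 7 group means, 5 residual degrees of freedom, variances moderated along an intensity trend, two-sided p, Benjamini-Hochberg adjustment, threshold 0.05. All 12 libraries entered the fit, so that groups share an estimate of the spread. The procedure was tested on simulated data. Positions came from GENCODE M21 (GRCm38, the mm10 assembly), in which 23376 symbols (95.7%) matched, and promoters from RefSeq (GRCm38.p6). Python 3.11.15 and matplotlib 3.10.9 drew the figures.

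The comparison, the gene lists and the rule for named genes were chosen with earlier results of these data known. The rule took the 12 called genes with the largest change in each direction whose libraries did not overlap, the 5 smallest p-values in each direction between the TRAMP diets, the 4 members of each list with the largest change, and 15 fixed genes; unnamed gene models were left out, and no gene was called both against wild type and between the diets. Replicate numbers 0 and 1 recur in TRAMP+PEITC and wild type, but no label says that they mark a shared litter or day. The alternatives were other pseudocounts, filters and scalings, a GC correction, a fit on the compared groups only, no intensity trend, a replicate block and leaving out each library. The hemoglobin, neutrophil and mitochondrially encoded lists had 0 tested members. Some named genes are not reported here.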

Additional observations from a re-analysis of the deposited data

How the results depend on the processing

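TRAMP+PEITC minus wild type gave 6087 calls, and 5225 to 6272 under other pseudocounts, filters, scalings, the GC correction, the fit on 4 libraries, no intensity trend and the block fits; leaving out 1 library gave 3941 (without TRAMP+PEITC replicate 1) to 4935, with the lone library of a group taken to vary like the other groups. With the replicate number as a block on the 4 libraries there were 5225 calls, 5256 with the GC correction as well. Ahr lost its call in both block fits (0.0584 and 0.0657). Same-numbered libraries deviated from their group means with a correlation of -0.18 over 2 pairs, so the crossed pairing was added after seeing the data; it gave 6272. TRAMP control diet minus wild type gave 6014 calls, and 4200 to 4950 without 1 library. The comparison of the TRAMP diets gave 0 calls, 9 with no filter on low values (7 of them microRNA or small nucleolar RNA genes), 1 in the fit on those groups alone, and 0 to 160 without 1 library. No paired analysis was possible for the diets because the groups share only the replicate number 0.

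Among 173 named genes 134 were called against wild type, and all kept their direction in every setting run, though not all kept their call. Where 1 library was left out, the kept direction was fixed in advance, since no called gene had libraries that overlapped between the groups. Directions turned, against wild type, for Ctgf (0.02) and Gclc (0.08) when library totals omitted the 50 most abundant genes, and for Ptx3 (-0.02) under quantile normalization. With each of the 4 libraries left out in turn, the log2 fold change ran between -0.31 and 0.07 for Krt6a, -0.07 and 3.49 for Insm1, -0.65 and 2.91 for Chga, -0.14 and 1.29 for Syp, -0.01 and 3.84 for Car3, -0.16 and 3.14 for Cidec, -0.37 and 3.05 for Adipoq, -0.21 and 1.91 for Tnnt3, -0.21 and 0.83 for Svs4, -0.97 and 0.03 for Twist2, -0.54 and 0.01 for Cdkn1a, and -0.12 and 0.03 for Gclc; the lowest values of Insm1, Chga, Syp, Cidec, Adipoq, Tnnt3 and Svs4 came without TRAMP+PEITC replicate 1. Between the diets it ran between -0.40 and 1.80 for Pbsn, -0.07 and 0.12 for Sbp, -0.03 and 1.39 for Syp, -0.06 and 0.18 for Gclc and -0.37 and 0.12 for Nqo1, and it was 0.00 for Sbp under quantile normalization. None of these differences was called in the fit reported, and the cause was not tested.

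Groups of 2 libraries limit the precision: the 95% interval reached 0.25 to either side at the median gene and 0.54 or more for 1 gene in 10. Wild type libraries were the shallowest. Genotype and diet cannot be told apart against wild type.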

Other observations

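Metabolic, death-related and immediate early lists not described above are read against the 22.8% of all tested genes called higher and the 22.7% called lower than in wild type, and most of their shares lie near or under these. Of 10 tested fatty acid synthesis genes 5 were higher and 1 lower than in wild type (median 0.26): the elongase Elovl5 gave 23.4 and 23.9 FPKM in TRAMP+PEITC, 19.5 and 24.4 in TRAMP control diet and 13.8 and 12.8 in wild type (0.78), and the desaturase Fads2 rose by 1.26; 2 members were called higher without TRAMP+PEITC replicate 0, its replicate 1 or wild type replicate 1. Of 17 cholesterol synthesis genes 2 rose and 4 fell (median 0.00), with 5 higher and 0 lower when the 50 most abundant genes were left out of the scaling. Of 13 glycolysis genes 3 fell (median -0.10), among them the glucose transporter Slc2a1 (-0.58), and of 18 oxidative phosphorylation genes 7 fell (median -0.15), with Ndufa1 at -0.74; both medians turned positive after quantile normalization (0.04 and 0.02). Of 17 apoptosis regulators 8 rose and 4 fell; Apaf1 rose by 0.79 and the initiator caspase Casp8 by 0.78. Of 13 immediate early genes 3 rose and 2 fell, with Nr4a1 at -1.19 and Egr1 at 1.96, whose call was lost with no filter (0.0588) and without TRAMP+PEITC replicate 0 (0.0634), its replicate 1 (0.107) or wild type replicate 1 (0.131); 1 member was called higher without TRAMP+PEITC replicate 0, its replicate 1 or wild type replicate 1.

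Neighbouring tissues gave low or mixed values. The seminal vesicle genes Svs2 (0.0423 and 0.280 FPKM in TRAMP+PEITC and 1.96 and 3.04 in wild type; -1.58) and Svs5 (0 and 1.12 FPKM in TRAMP+PEITC and 2.22 and 3.97 in wild type; -1.46) were lower in TRAMP+PEITC at levels under 5 FPKM; Svs5 lost its call with a pseudocount of 0.1 (0.0787), with no filter (0.0519), without TRAMP+PEITC replicate 0 (0.115) and without wild type replicate 1 (0.121). The urothelial plaque gene Upk1a fell to 198 and 143 FPKM in TRAMP+PEITC, against 506 and 583 in wild type (-1.68), while Upk1b rose to 118 and 109 FPKM, against 54.9 and 59.4 in wild type (0.98). Of 11 tested genes of the epithelial-mesenchymal transition 1 was called higher and 1 lower, both under the share over all genes: Snai2 fell (-0.90), and Tgfbi (0.98) lost its call with any 1 of the 4 libraries left out (0.0858 to 0.184). By gene class, 22 of 84 tested small nucleolar RNA genes (26.2%) were higher and 1 (1.19%) lower than in wild type, against 23.1% and 23.2% of 12225 protein-coding genes; such short genes give uneven FPKM values. By chromosome, higher calls made up 27.7% of tested genes on chromosome 17 and 27.3% on chromosome 6, and 19.9% to 24.1% on the other chromosomes; lower calls made up 27.1% on chromosome 16, 26.6% on chromosome 18 and 26.2% on chromosome 15.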
